A study of Mus musculus with 24 samples.

Results

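The transcripts described here are 10 immediate early genes, Fos, Fosb, Junb, Egr1, Egr2, Arc, Npas4, Nr4a1, Dusp1 and Ier2, measured in RNA from whole mouse brain. They were taken by name as a standard set of activity-induced genes, but with earlier results of these data known. All 10 were found among the 18193 genes that had a probe set with 1 gene symbol. They were read by 11 probe sets, Egr2 by 2 and the others by 1 each, and all 11 were brighter than the dimmest 40% of probe sets, which were left out of every test. Whole brain of 4-month-old mice gave 24 samples in 4 groups of 6: wild type (wt), mice labelled aSYN only, mice labelled Hsp70 only, and mice carrying both (aSYN/Hsp70). The label aSYN is read here as alpha-synuclein, the protein that aggregates in Parkinson's disease, and Hsp70 is a family of chaperones that refold or clear misfolded proteins. Strain, promoter and transgene species are not given in the labels, so the cells in which either protein was made are unknown here. No label says that the 6 samples of a group were separate animals. Each sample is called a brain below for short. Every p-value treats the samples as separate units and refers to the spread between them.

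Immediate early genes are switched on within minutes of a stimulus without new protein synthesis, since the factors that start them are already present in the cell and need only be phosphorylated. In neurons, calcium entry through synaptic receptors and channels activates kinases of the MAPK, CaMK and PKA pathways, which act on CREB at cyclic AMP response elements (CRE) and on SRF with its partners at serum response elements, whose core is the CArG box. The messages are short lived, and in brain they are widely used to mark recently active neurons. Fos, Fosb and Junb form AP-1 dimers, Egr1 and Egr2 are zinc finger factors, Npas4 is a neuronal bHLH-PAS factor induced by calcium, Nr4a1 is an orphan nuclear receptor, and Ier2 is a nuclear protein. Arc acts at the synapse, where it promotes removal of AMPA receptors, and Dusp1 is a phosphatase that switches MAP kinases off again.

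The RefSeq promoter table (GRCm38.p6) held windows for 7 of the 10 genes, Fos, Fosb, Junb, Egr2, Npas4, Nr4a1 and Dusp1. Egr1, Arc and Ier2 had no entry. The 250 bases before the annotated start are printed for the 3 genes whose levels followed each other most closely across the 24 brains (Fos, Junb and Nr4a1), for the gene with the full CRE (Dusp1) and for the gene with a CArG box (Egr2, of whose annotated starts 1 is shown). Capitals mark matches to the CRE TGACGTCA, to its part TGACG and to the CArG box, on either strand; other motifs are left in lower case.
Fos, chr12:85473640-85473889 (plus strand): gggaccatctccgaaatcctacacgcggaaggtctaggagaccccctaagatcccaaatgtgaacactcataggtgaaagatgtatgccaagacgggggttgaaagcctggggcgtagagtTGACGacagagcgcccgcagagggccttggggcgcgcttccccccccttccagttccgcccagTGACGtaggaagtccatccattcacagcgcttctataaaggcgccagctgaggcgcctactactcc
Junb, chr8:84978749-84978998 (minus strand): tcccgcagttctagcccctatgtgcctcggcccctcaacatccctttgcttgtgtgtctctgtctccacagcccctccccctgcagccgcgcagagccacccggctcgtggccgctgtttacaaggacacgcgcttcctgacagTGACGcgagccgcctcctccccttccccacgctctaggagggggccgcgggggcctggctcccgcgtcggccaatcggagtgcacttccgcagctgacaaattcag
Nr4a1, chr15:101266596-101266845 (plus strand): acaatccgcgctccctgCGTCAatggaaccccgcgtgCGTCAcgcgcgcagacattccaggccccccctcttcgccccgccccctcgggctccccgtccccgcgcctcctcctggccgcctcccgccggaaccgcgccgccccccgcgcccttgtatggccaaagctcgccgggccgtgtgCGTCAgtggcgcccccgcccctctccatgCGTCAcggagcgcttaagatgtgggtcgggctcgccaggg
Dusp1, chr17:26508473-26508722 (minus strand): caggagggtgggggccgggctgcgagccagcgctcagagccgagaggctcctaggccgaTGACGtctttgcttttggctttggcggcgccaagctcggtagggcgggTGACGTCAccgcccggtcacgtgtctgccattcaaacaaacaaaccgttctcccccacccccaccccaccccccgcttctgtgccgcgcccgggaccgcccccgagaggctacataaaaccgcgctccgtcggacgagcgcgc
Egr2, chr10:67537619-67537868 (plus strand): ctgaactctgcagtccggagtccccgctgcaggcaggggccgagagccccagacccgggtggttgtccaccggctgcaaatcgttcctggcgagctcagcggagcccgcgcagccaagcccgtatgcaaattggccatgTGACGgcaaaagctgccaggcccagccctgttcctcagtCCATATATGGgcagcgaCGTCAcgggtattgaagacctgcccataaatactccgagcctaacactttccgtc
The part TGACG, which also lies inside TGACGTCA, occurred in a window of 7 of 7 genes, where a window ran from 250 bases before to 50 bases after a start, against 20.8% of all 32851 windows of that length and 23.1% of all genes with one. The full CRE TGACGTCA was found in 1 of 7 genes (Dusp1, 1.79% of windows), the CArG box in 1 of 7 (Egr2, 1.63%) and GCGGGGGCG in 2 of 7 (Fosb and Nr4a1, 2.91%). The AP-1 site TGANTCA (7.81% of windows) and the EGR variant GCGTGNGCG (2.37%) had no match in these windows of the 7 genes. A match describes letters only, and elements outside the windows were not searched.

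All levels below are log2(intensity + 16) after quantile normalisation, so a step of 1 is a doubling, and levels of different genes are not set against each other. The arrays differed in quality: deposited array medians ran from 458 to 893 intensity units, 4 arrays had a limma weight under 0.5 (aSYN/Hsp70 replicates 3 and 4, Hsp70 replicates 3 and 6), and by sex-linked transcripts 4, 4, 3 and 2 of the 6 arrays of wt, aSYN, Hsp70 and aSYN/Hsp70 were female. Markers of neurons, astrocytes, oligodendrocytes and microglia were all above the dim filter where they had a probe set (15 of 15). So were those of forebrain excitatory neurons (5 of 5), striatum (4 of 4), choroid plexus (4 of 4) and endothelium (4 of 4). Cerebellar markers passed it for 3 of 5, olfactory bulb markers for 3 of 4 and pituitary markers for 3 of 4. In whole-brain RNA, fewer active cells and less message per cell cannot be told apart.

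Each member varied widely among brains of 1 genotype: for 10 of 10 members, the range within every group was wider than the largest difference between any pair of group means. Fos had a lowest, median and highest level of 12.05, 13.11 and 13.44 in wt brains, 12.13, 13.51 and 14.10 in aSYN brains, 11.69, 13.22 and 14.08 in Hsp70 brains and 11.60, 12.95 and 14.69 in aSYN/Hsp70 brains. In deposited units its 6 aSYN/Hsp70 brains ran from 3083 to 25924, an 8.53-fold range after normalisation, against 2.62-fold in wt. The top of that range was aSYN/Hsp70 replicate 4, the array with the lowest limma weight (0.124), and the next brain stood at 13.70. The lowest Fos brains were replicate 5 in wt and aSYN/Hsp70, replicate 6 in aSYN and replicate 4 in Hsp70, and all 4 groups overlapped. Its group means were 12.95 ± 0.54 for wt, 13.27 ± 0.77 for aSYN, 13.10 ± 0.85 for Hsp70 and 13.03 ± 1.16 for aSYN/Hsp70 (SD, n = 6).

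The other AP-1 genes differed in how they spread. Junb stood at 10.67, 11.36 and 12 in wt brains, 11.24, 12.13 and 12.61 in aSYN brains, 10.83, 11.78 and 12.63 in Hsp70 brains and 10.85, 11.52 and 12.52 in aSYN/Hsp70 brains, again lowest, median and highest. The aSYN brains lay toward the top of the wt range, and 5 of 6 exceeded the median wt brain, yet the groups overlapped. Group means of Junb were 11.36 ± 0.45 for wt, 12.01 ± 0.51 for aSYN, 11.79 ± 0.64 for Hsp70 and 11.56 ± 0.67 for aSYN/Hsp70 (SD, n = 6). Fosb stood at 8.92, 9.57 and 10.21 in wt brains, 9.23, 9.80 and 11.12 in aSYN brains, 6.56, 9.40 and 9.97 in Hsp70 brains and 7.96, 9.73 and 9.88 in aSYN/Hsp70 brains. Its low end was set by replicate 3 in both Hsp70 groups, and Hsp70 replicate 3 was the lowest of all 24 arrays for Fosb while it lay above its group mean for 8 of the 10 members.

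Among the zinc finger, nuclear receptor and bHLH-PAS factors, Egr1 had the narrowest range over all brains. Egr1 stood at 15.03, 15.61 and 15.89 in wt brains, 14.98, 15.55 and 15.79 in aSYN brains, 14.94, 15.54 and 15.92 in Hsp70 brains and 14.94, 15.36 and 15.60 in aSYN/Hsp70 brains, a range of 1.97-fold over all 24 brains. Egr2 stood at 8.95, 10.35 and 10.66 in wt brains, 8.25, 11.15 and 11.91 in aSYN brains, 8.44, 10.60 and 11.02 in Hsp70 brains and 8.42, 9.84 and 10.51 in aSYN/Hsp70 brains. It was the most variable member within aSYN, with a 12.7-fold range between replicate 5 and replicate 1, and its group means were 10.18 ± 0.63 for wt, 10.56 ± 1.53 for aSYN, 10.26 ± 0.98 for Hsp70 and 9.59 ± 0.98 for aSYN/Hsp70 (SD, n = 6). Nr4a1 stood at 12.19, 13.08 and 13.81 in wt brains, 12.18, 13.53 and 13.89 in aSYN brains, 12.48, 13.59 and 14.33 in Hsp70 brains and 12.37, 13.13 and 14.01 in aSYN/Hsp70 brains. Npas4 stood at 8.80, 10.42 and 10.56 in wt brains, 10.08, 10.42 and 12.14 in aSYN brains, 9.24, 10.60 and 11.24 in Hsp70 brains and 8.72, 10.20 and 10.89 in aSYN/Hsp70 brains. For Npas4, aSYN replicate 1 and wt replicate 5 lay away from the rest of their groups, and the groups of all 4 factors overlapped.

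The synaptic gene Arc stood at 10.67, 12.29 and 13.56 in wt brains, 10.91, 12.73 and 13.56 in aSYN brains, 11.39, 13.01 and 13.85 in Hsp70 brains and 9.68, 12.11 and 13.24 in aSYN/Hsp70 brains, a range of 18.0-fold over the 24 brains, with aSYN/Hsp70 replicate 2 lowest. Means of Arc were 12.24 ± 0.98 for wt, 12.53 ± 0.95 for aSYN, 12.80 ± 0.86 for Hsp70 and 11.91 ± 1.34 for aSYN/Hsp70 (SD, n = 6). The phosphatase gene Dusp1 stood at 12.85, 13.68 and 13.92 in wt brains, 13.29, 13.66 and 14.12 in aSYN brains, 13.20, 13.69 and 13.94 in Hsp70 brains and 12.59, 13.18 and 14.13 in aSYN/Hsp70 brains. Ier2 stood at 9.75, 10.52 and 11.01 in wt brains, 9.92, 10.57 and 10.91 in aSYN brains, 10.24, 10.67 and 11.04 in Hsp70 brains and 9.86, 10.55 and 11.26 in aSYN/Hsp70 brains. Dusp1 and Ier2 spanned 2.91-fold and 2.85-fold over all brains, and their groups overlapped throughout.

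**Figure D1:**
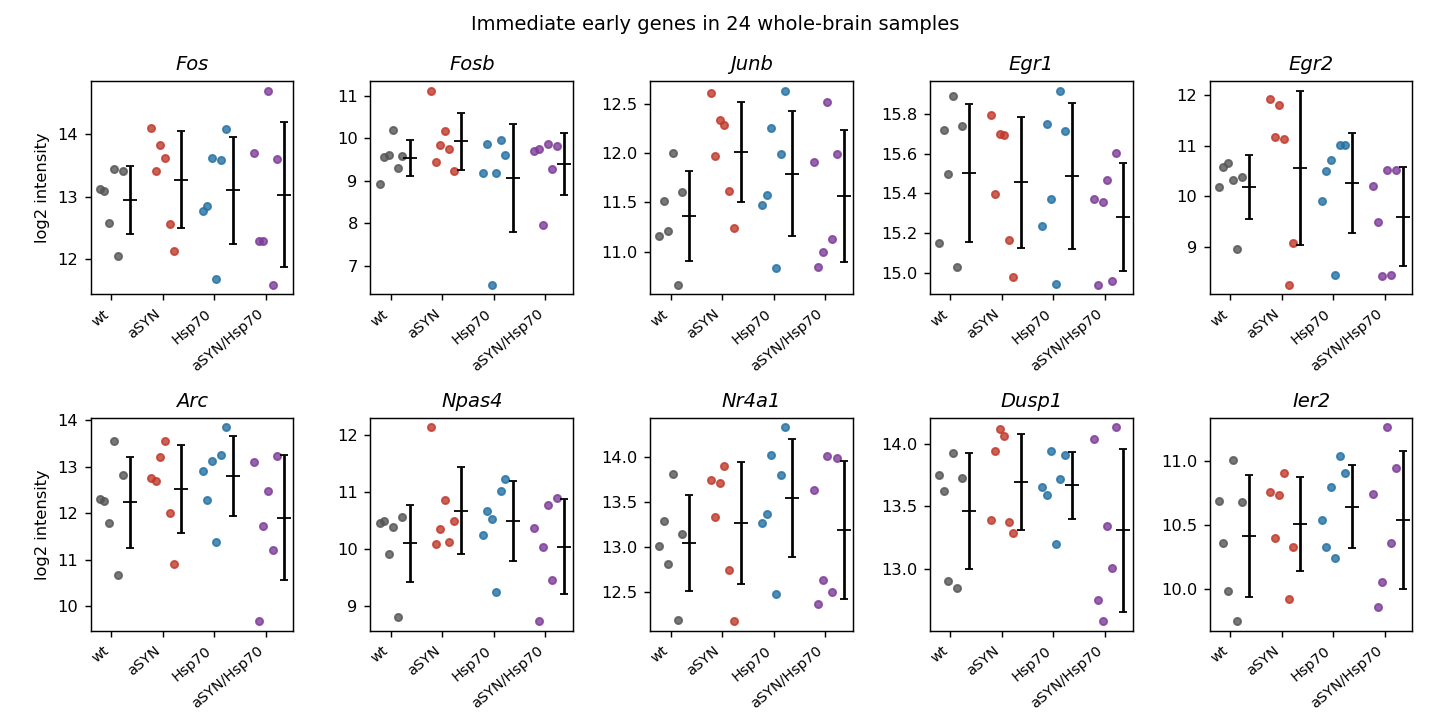
Log2(intensity + 16) of the 10 immediate early genes in each of the 24 brains, 1 panel per gene, grouped by genotype (6 points each) with the group mean and SD. The groups overlap for every gene, and the points of 1 genotype span from 1.58-fold (Egr1 in aSYN/Hsp70) to 12.7-fold (Egr2 in aSYN).

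The spread within genotypes was set against that of the other probe sets. The residual SD after removing group means was 1.08 for Egr2, 1.05 for Arc, 0.86 for Fos, 0.83 for Fosb, 0.75 for Npas4, 0.66 for Nr4a1, 0.57 for Junb, 0.46 for Dusp1, 0.43 for Ier2 and 0.33 for Egr1, against a median of 0.32 over the 27022 probe sets tested. Among all probe sets tested, these SDs ranked between the 52.4 (Egr1) and 98.2 (Egr2) percentile, with Ier2 at 65.3, Dusp1 at 68.5 and Junb at 77.5. Among only the probe sets at least as bright as the member, they ranked between the 94.3 (Ier2) and 99.9 (Arc) percentile. Egr1, with the smallest SD of the members, was at 99.2 there, among 602 probe sets.

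Brains that were high in 1 member were high in most others. Within each group, wt replicate 5 was the lowest brain for 9 of 10 members, Hsp70 replicate 4 for 9, aSYN replicate 6 for 7 and aSYN/Hsp70 replicate 2 for 6. At the other end, wt replicate 4 was the highest for 8 members, and aSYN replicate 1, Hsp70 replicate 6 and aSYN/Hsp70 replicate 4 for 6 each. All 10 members lay above their group means in 8 brains and below them in 4.

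**Figure D2:**
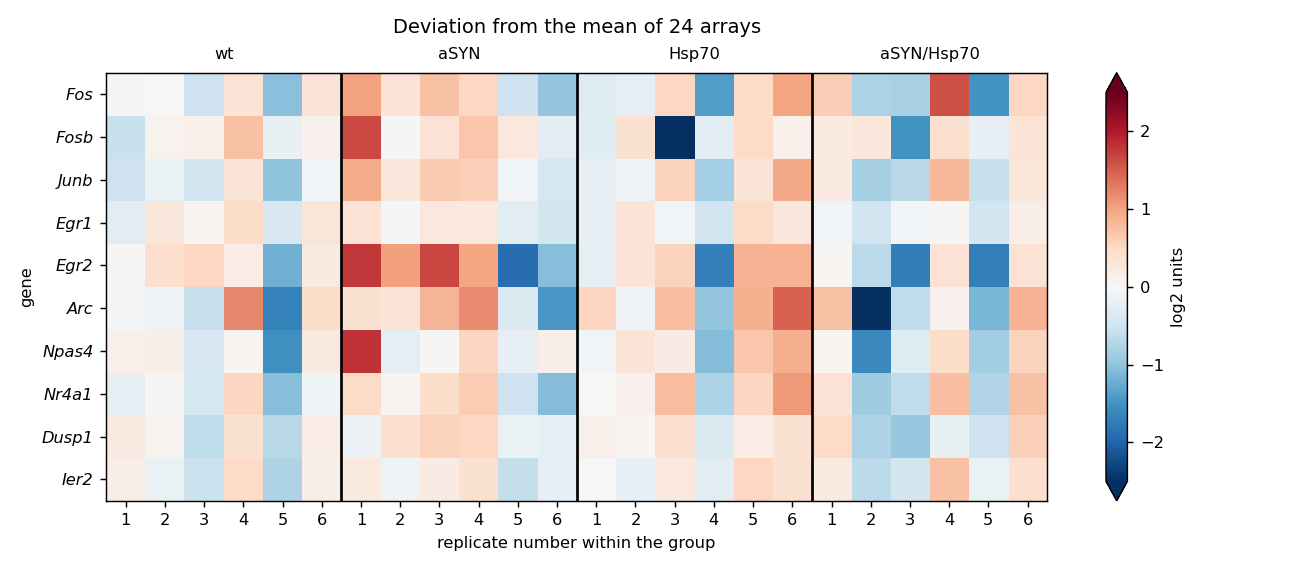
Deviation of each immediate early gene (rows) from its mean over 24 arrays, on the log2 scale, in every brain (columns, grouped by genotype). Colours stop at 2.5 log2 units in each direction. Columns such as wt replicate 5 and Hsp70 replicate 4 are low for nearly every gene, while Fosb departs from the other rows in Hsp70 replicate 3.

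Pairs of members were compared over the 24 brains after removing group means, with Pearson's r, Spearman's rho and 100000 permutations of the brains, adjusted by Benjamini-Hochberg over the 45 pairs. Deviations were permuted as if free, although group means had been removed, so the permutation p-values of pairs are somewhat too small. All 45 correlations were positive, with a median r of 0.767, and 37 passed at an adjusted p under 0.05. Junb and Nr4a1 had the highest (r = 0.968, rho = 0.971), followed by Fos and Junb (r = 0.947, rho = 0.952) and Fos and Nr4a1 (r = 0.937, rho = 0.935), each with a permutation p of 1e-05, the smallest these permutations can give, and an adjusted p of 2.5e-05. Without the 2 brains farthest from the median of the first gene, r was 0.965, 0.961 and 0.933 for these 3 pairs. The first principal component held 73.4% of the members' variance, with 10 of 10 loadings of the same sign. As a description, the median r over all 83573056 pairs of the 12929 genes was 0.0035, and 0.309% of those pairs reached 0.767.

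Fosb was the exception. The 36 pairs without Fosb all passed (r from 0.517 to 0.968, largest adjusted p = 0.0128), while of the 9 pairs with Fosb only that with Egr1 did (r = 0.443, permutation p = 0.026, adjusted p = 0.0316). With group means left in, 36 of 45 pairs passed and 0 of those with Fosb. The 3 lowest correlations of all were Fosb with Dusp1 (r = 0.130, rho = 0.183, permutation p = 0.552, adjusted p = 0.552), Fosb with Arc (r = 0.180, rho = 0.387, permutation p = 0.401, adjusted p = 0.410) and Fosb with Nr4a1 (r = 0.255, rho = 0.472, permutation p = 0.235, adjusted p = 0.246). Without the 2 brains farthest from the median of Fosb, their r was 0.133, 0.361 and 0.506. These low values moved most with 1 array. Without Hsp70 replicate 3, r of Fosb with the other members ran from 0.348 to 0.628 and 7 of 9 pairs passed, for 43 of 45 pairs in all. By rank, 43 of 45 pairs passed with all 24 arrays.

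**Figure D3:**
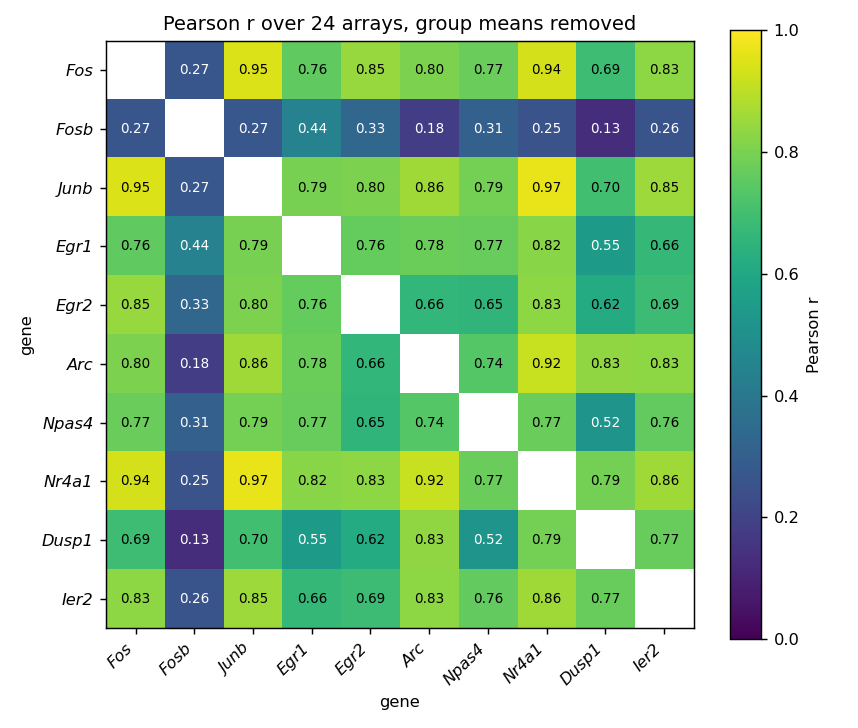
Pearson's r between each pair of immediate early genes over 24 brains, with group means removed. The block of 9 genes without Fosb lies between 0.517 and 0.968, and the Fosb row between 0.130 and 0.443.

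Within single genotypes the correlations are given as a description, from 6 brains each. Median r over the 45 pairs was 0.815 for wt (45 positive pairs), 0.768 for aSYN (43), 0.875 for Hsp70 (38) and 0.781 for aSYN/Hsp70 (45). Between sexes, the median was 0.617 in the 13 female brains (26 of 45 pairs passing) and 0.861 in the 11 male brains (42 of 45), and a difference between sexes was not tested. The counts passing within a sex are likely too high, since few brains of a sex stood in each group (2 female brains in aSYN/Hsp70).

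**Figure D4:**
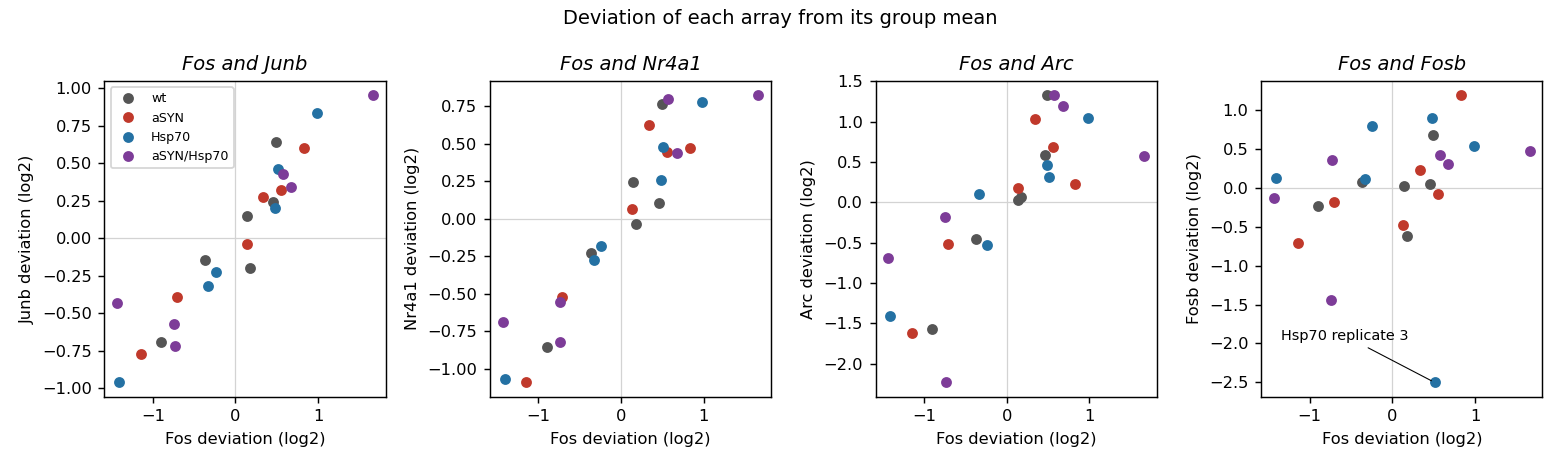
Deviations of Junb, Nr4a1, Arc and Fosb from their group means (vertical, log2) against those of Fos (horizontal, log2), 1 point per brain, coloured by genotype. Junb and Nr4a1 follow Fos closely (r = 0.947 and 0.937), and in the Fosb panel Hsp70 replicate 3 lies far below the other points.

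Searched against the brightest probe set of 12928 other genes, each member's nearest gene by r was another member for 9 of 10. The 10 nearest to Fos were Junb, Nr4a1, Egr2 (0.846), Ier2 (0.831), Hif1an (0.828), Egr4 (0.812), Top1mt (0.809), Gadd45g (0.807), Arc (0.804) and Gadd45b (0.776). Junb and Nr4a1 were nearest to each other, with Fos next for both, then Hif1an for Junb (0.858) and Arc for Nr4a1. Nr4a1 was first for Egr1, Arc and Ier2, Junb for Npas4, Fos for Egr2 and Arc for Dusp1. Genes outside the set among the first 3 were the deiodinase Dio2 (0.811) and the AP-1 gene Fosl2 (0.801) for Egr1, Cfap300 (0.819) for Egr2, and the glycolytic regulator Pfkfb3 (0.787) for Dusp1. For Fosb the nearest were Lppos (0.837), Rgl1 (0.834) and Gmeb2 (0.819), and its nearest member, Egr1, ranked 1004. Egr4, itself an immediate early zinc finger factor, was among the 10 nearest genes of 5 members, more than any other gene outside the set.

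Other genes of the pathway were taken from lists of known immediate early factors, activity-regulated effectors and upstream kinases. These lists too were chosen with earlier results of these data known. Of the other immediate early factors, 21 of 24 could be tested, and their median r with the 10 members had a median of 0.384. It was highest for Egr4 (0.756), the nuclear receptor Nr4a3 (0.663) and Per1 (0.594), near 0 for Jun (0.068) and negative for Jund (-0.149) and Klf6 (-0.188). Among the effectors (30 of 33 listed symbols) the median was 0.353, led by the growth arrest gene Gadd45g (0.689), the secreted peptide precursor Vgf (0.622) and the neurotrophin Bdnf (0.604). Of these, Ccn1 and Ccn2 were also listed under their older symbols, Cyr61 and Ctgf. For the upstream kinases and factors (23 of 32 listed symbols), including Creb1 (0.079) and Srf (0.287), the median was 0.016, with Mrtfb highest (0.430). Mrtfa and Mrtfb were also listed under their older symbols, Mkl1 and Mkl2. These correlations are descriptions over the same 24 brains, without a test.

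Against properties of the arrays, the members showed no relation that passed. Over 13 measures and 10 members (130 relations), 0 passed at an adjusted permutation p under 0.05 and the smallest adjusted p was 0.95. The 3' to 5' signal difference of control transcripts, a measure of RNA integrity, had r from -0.278 to -0.037 with the members. For the limma array weight, on the log2 scale, r ran from -0.427 (Fos, permutation p = 0.038, adjusted p = 0.95) to 0.342 (Fosb). Mean log2 levels of forebrain excitatory neuron markers had r from -0.049 to 0.200, cerebellar markers from -0.440 to -0.006 and pituitary markers from -0.388 to -0.113. Both of these lists varied between wt brains. The mean of the 4 pituitary markers with a probe set ran from 7.31 to 14.64 in wt, highest in replicate 5, the lowest wt brain for 9 of 10 members. In the other groups this pituitary mean ran from 7.02 to 12.31. All 10 members had a negative r with it, and also with the cerebellar markers, the endothelial markers and the 3' to 5' difference. Without the 2 brains farthest from the median of the measure, the sign stayed shared only for the pituitary markers (r from -0.455 to -0.103). It then ran from -0.198 to 0.144 for cerebellar markers, -0.194 to 0.201 for endothelial markers and -0.238 to 0.013 for the 3' to 5' difference. As the members follow each other from brain to brain, such a shared sign is not 10 separate observations. The mean of the 5 cerebellar markers ran from 8.76 to 13.98 in wt, highest in replicate 1, and from 8.77 to 11.82 in the other groups. Their part in the members' levels was not tested beyond these correlations. 

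The comparisons that follow read each member by its brightest probe set. In aSYN against wt, 9 of 10 members had a higher mean and 1 a lower one, with a median difference of 0.31 log2 units against 0.008 over all genes tested. No member was called: 0 of 10 passed limma at an adjusted p under 0.05 (0.0037% of all 27022 probe sets did) and 0 of 10 had an unadjusted p under 0.05 (5.17% did). The largest difference was that of Junb, at 0.65 (SE 0.319, 95% interval -0.01 to 1.31, limma adjusted p = 0.967). Its exact two-sided permutation p was 0.039 (adjusted p = 0.776 over the 50 exact tests of members), the only one of the 50 under 0.05. Npas4 differed by 0.58 (SE 0.414, 95% interval -0.28 to 1.44, limma adjusted p = 1) and Dusp1 by 0.23 (SE 0.258, 95% interval -0.31 to 0.77, limma adjusted p = 1). With 1 array left out, the difference of Junb ran from 0.51 (without wt replicate 5) to 0.80 (without aSYN replicate 6). The difference of Npas4 was 0.28 without aSYN replicate 1, its highest brain, and 0.32 without wt replicate 5, and that of Dusp1 was 0.11 without wt replicate 5. All 10 members overlapped between the groups, where 1.17% of all probe sets did not.

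In Hsp70 against wt, 8 of 10 members had higher and 2 lower means, with a median of 0.22 against 0.006 over all genes. Again 0 of 10 passed (0% of all probe sets did), 0 of 10 had an unadjusted p under 0.05 (4.83%), and all 10 overlapped (0.27% did not). Nr4a1 differed by 0.50 (SE 0.368, 95% interval -0.26 to 1.26, limma adjusted p = 0.881) and Junb by 0.43 (SE 0.319, 95% interval -0.23 to 1.09, limma adjusted p = 0.881). Without the 4 arrays of low weight, 2 of which are Hsp70 brains, these became 0.18 and 0.11, and with array weights 0.12 and 0.08. Junb differed by 0.27 without Hsp70 replicate 6 and Nr4a1 by 0.33 without wt replicate 5. Fosb differed by -0.47 (SE 0.461, 95% interval -1.42 to 0.49, limma adjusted p = 0.893), and turned to 0.04 without Hsp70 replicate 3.

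In brains labelled with both, members lay on either side of wt. In aSYN/Hsp70 against wt, 4 members had higher and 6 lower means, with a median of -0.09 against -0.007 over all genes. Of 10 members 0 passed (0% of all probe sets did), 0 had an unadjusted p under 0.05 (14.5%), and all 10 overlapped (0.888% did not). The smallest p-values were those of Egr1, at -0.22 (SE 0.188, 95% interval -0.61 to 0.17, limma adjusted p = 0.56), Egr2, at -0.58 (SE 0.595, 95% interval -1.82 to 0.65, limma adjusted p = 0.631), and Junb, at 0.20 (SE 0.319, 95% interval -0.46 to 0.87, limma adjusted p = 0.764). Junb ran from 0.01 (without aSYN/Hsp70 replicate 4) to 0.35 (without aSYN/Hsp70 replicate 2), Egr2 was -0.35 without aSYN/Hsp70 replicate 3 or 5, and Egr1 was -0.15 without wt replicate 4.

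In aSYN/Hsp70 against aSYN, 9 of 10 members had a lower mean and 1 a higher one, with a median of -0.41 against -0.014 over all genes. Of the members 0 of 10 passed (0.718% of all probe sets did) and 0 of 10 had an unadjusted p under 0.05 (19.6% did). Egr2 differed by -0.97 (SE 0.595, 95% interval -2.20 to 0.27, limma adjusted p = 0.367), Npas4 by -0.63 (SE 0.414, 95% interval -1.49 to 0.22, limma adjusted p = 0.394) and Dusp1 by -0.38 (SE 0.258, 95% interval -0.92 to 0.15, limma adjusted p = 0.407). All 10 overlapped, where 2.05% of probe sets did not. Npas4 differed by -0.34 without aSYN replicate 1 and -0.37 without aSYN/Hsp70 replicate 2, and Dusp1 by -0.24 without aSYN/Hsp70 replicate 3 and -0.21 without the 4 arrays of low weight. A dimmer second probe set of Egr2, which correlated with the first at r = 0.694 (rho = 0.517, permutation p = 0.00026, r = 0.716 without the 2 farthest brains), gave -1.75 (SE 0.702, unadjusted p = 0.0207, limma adjusted p = 0.185). These 2 probe sets gave the same direction and neither was called.

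In aSYN/Hsp70 against Hsp70, 9 members had lower and 1 a higher mean (median -0.29 against -0.009). Of the 10 members 0 passed (0% of all probe sets did), 0 had an unadjusted p under 0.05 (9.62%), and all 10 overlapped (0.311% did not). Arc differed by -0.89 (SE 0.578, 95% interval -2.09 to 0.31, limma adjusted p = 0.634), Dusp1 by -0.36 (SE 0.258, 95% interval -0.89 to 0.18, limma adjusted p = 0.671) and Egr2 by -0.67 (SE 0.595, 95% interval -1.90 to 0.56, limma adjusted p = 0.736). Without Hsp70 replicate 4 Egr2 was at -1.03. The value of Arc was -0.44 without aSYN/Hsp70 replicate 2 and also with array weights, and that of Dusp1 was -0.06 and that of Egr2 -0.31 without the 4 arrays of low weight. For the dimmer probe set of Egr2 the difference was -1.54 (SE 0.702, unadjusted p = 0.039, limma adjusted p = 0.496). The comparisons above share groups, so the counts of higher and lower members in them are not independent of each other.

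**Figure D5:**
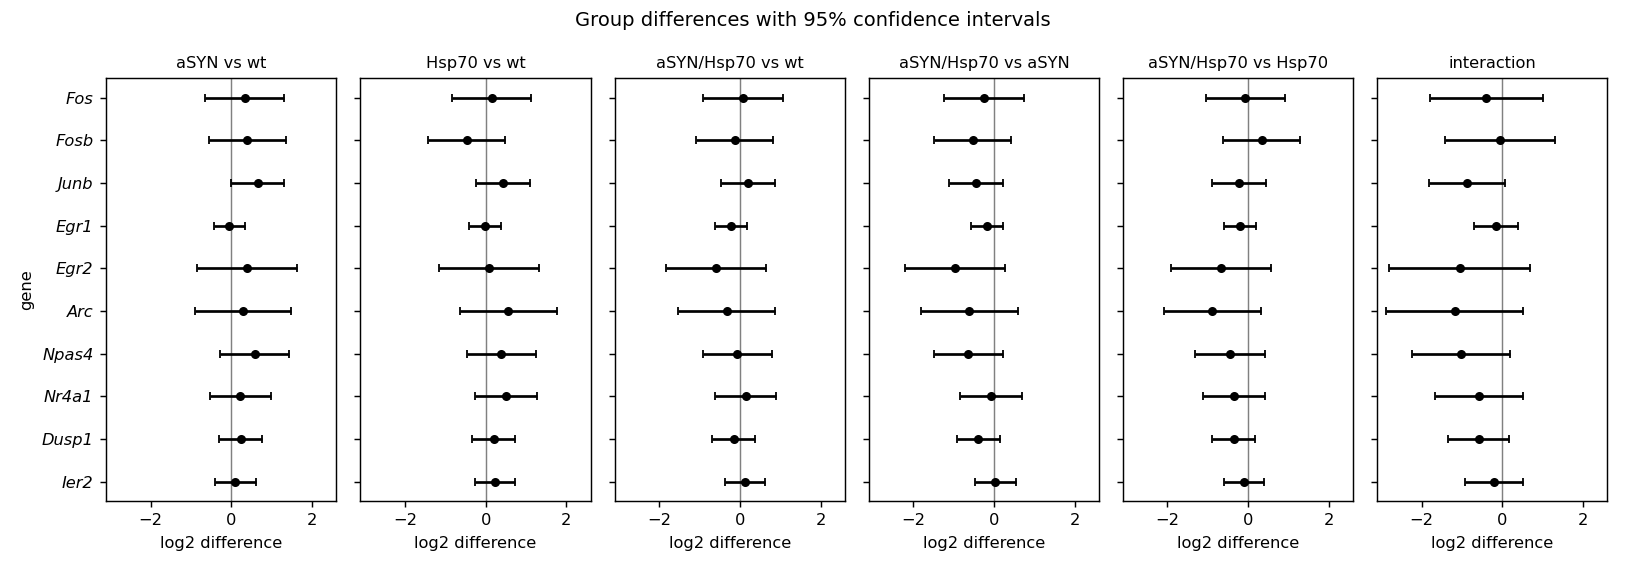
Log2 difference of each immediate early gene in 6 comparisons, with the 95% interval of the limma fit of 24 arrays. Every interval includes 0; that of Junb in aSYN against wt comes closest to leaving it out, from -0.01 to 1.31.

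The 12 Hsp70 carriers against the 12 non-carriers gave 2 members with higher and 8 with lower means (median -0.07 against -0.006 over all genes). Of 10 members 0 passed (0% of all probe sets did) and 0 had an unadjusted p under 0.05 (17.7%). Fosb differed by -0.50 (SE 0.326, 95% interval -1.17 to 0.18, limma adjusted p = 0.411), Egr2 by -0.44 (SE 0.420, 95% interval -1.31 to 0.43, limma adjusted p = 0.571) and Nr4a1 by 0.21 (SE 0.260, 95% interval -0.33 to 0.75, limma adjusted p = 0.669). Without Hsp70 replicate 3 Fosb was at -0.25, and without the 4 arrays of low weight at -0.13. Egr2 ran from -0.67 (without aSYN replicate 5) to -0.26 (without Hsp70 replicate 4) and was -0.85 with array weights. Nr4a1 ran from 0.10 (without aSYN replicate 6) to 0.32 (without Hsp70 replicate 4) and was -0.06 with array weights. The 12 aSYN carriers against the other 12 gave 4 higher and 6 lower (median -0.03 against -0.002), again with 0 of 10 passing (0%) and 0 at an unadjusted p under 0.05 (6.39%). Fosb differed there by 0.37 (SE 0.326, 95% interval -0.31 to 1.04, limma adjusted p = 0.868), Junb by 0.21 (SE 0.225, 95% interval -0.26 to 0.68, limma adjusted p = 0.894) and Egr1 by -0.13 (SE 0.133, 95% interval -0.40 to 0.15, limma adjusted p = 0.888). Fosb was at 0.12 without Hsp70 replicate 3, Junb at 0.11 without Hsp70 replicate 4 and 0.35 with array weights, and Egr1 at -0.08 without aSYN replicate 6.

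The interaction, the aSYN difference with Hsp70 minus that without it, was below 0 for 10 of 10 members, with a median of -0.58 against -0.023 over all genes. Of the members 0 passed (0% of all probe sets did) and 0 had an unadjusted p under 0.05 (8.13%). Junb had an interaction of -0.88 (SE 0.451, 95% interval -1.81 to 0.06, limma adjusted p = 0.634), Npas4 of -1.03 (SE 0.586, 95% interval -2.24 to 0.19, limma adjusted p = 0.683) and Dusp1 of -0.59 (SE 0.365, 95% interval -1.34 to 0.17, limma adjusted p = 0.719), which was -0.29 without the 4 arrays of low weight. Since the members move together from brain to brain, their shared sign is not 10 separate observations. The same dimmer probe set of Egr2 had an interaction of -2.35 (SE 0.993, unadjusted p = 0.0274, limma adjusted p = 0.562).

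Of the other genes of the pathway, 1 was called in 1 comparison. Among the activity-regulated effectors, Spry2, a feedback inhibitor of receptor tyrosine kinase signalling, fell by 0.40 on the log2 scale in aSYN/Hsp70 against aSYN (SE 0.093, limma adjusted p = 0.0431), from 12.97 ± 0.16 to 12.56 ± 0.07 (SD, n = 6). It was called under 16 of 36 other settings (adjusted p 0.026 to 0.125), and its median r with the members was 0.066. In that comparison 1 of 30 effectors (median -0.06), 0 of 21 other immediate early factors (median -0.21) and 0 of 23 upstream genes (median -0.14) were called. Of all probe sets 0.718% were called there. In the other 7 comparisons 0 genes of these 3 lists were called (0% to 0.0037% of all probe sets were), and their medians lay between -0.16 and 0.11. At an unadjusted p under 0.05, the most upstream genes stood in aSYN/Hsp70 against Hsp70, 7 of 23 (30.4%, against 9.62% of all probe sets). The factors had at most 3 of 21 (14.3%), in aSYN/Hsp70 against aSYN (19.6% of all probe sets) and in Hsp70 carriers against non-carriers (17.7%). The effectors had at most 3 of 30 (10%), in aSYN against wt (5.17% of all probe sets), aSYN/Hsp70 against wt (14.5%) and aSYN/Hsp70 against aSYN (19.6%).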

How the data were processed

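Values deposited by the authors are linear intensities of 45101 probe sets on 24 arrays, scaled so that each array's mean without the lowest and highest 2% is 2500; no source used here names the summarising program. They were transformed as log2(intensity + 16) and quantile normalised, which understates differences of dim probe sets. After 64 control probe sets and the dimmest 40% (18015) were removed, 27022 were fitted in 1 limma 3.58.1 model (R 4.3.3) with a mean per group and no covariates, called at a Benjamini-Hochberg adjusted p of 0.05. A gene was read by its brightest probe set with 1 symbol. Exact permutation tests used 924 splits of 6 against 6 and could not go below 0.00216. In each comparison the 3 members with the smallest p-values are given in full. The members and lists were chosen with earlier results of these data known. The fit was tested on simulated data, in which 200 probe sets were changed in aSYN/Hsp70 and the comparison with aSYN was read. It recovered 29% of those changed by 0.5 log2 units and 53% of those changed by 1, with 6 false calls. With no probe set changed, it called 0. The changed probe sets were drawn at random from all those tested, whose median residual SD was 0.32. Members had residual SDs from 0.33 to 1.08, so these shares are not those to be expected for the members. Alternatives changed the normalisation, offset (1 or 256), dim filter, probe set choice, arrays fitted, covariates, weights and variance, and left out each array. The number of arrays limits precision.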

Additional observations from a re-analysis of the deposited data

Results flagged for a closer look

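In 4 of the 40 member-by-group sets of 6 brains the lowest brain stood apart by Dixon's test (gap to the nearest brain above 0.625 of the range), where chance gives about 1 in 20. As the members share arrays and follow each other, the 40 sets are not separate observations, and an excess cannot be read from this count. Fosb was at 6.56 log2 units in Hsp70 replicate 3, with the nearest brain at 9.19 and the highest at 9.97. Fosb was at 7.96 in aSYN/Hsp70 replicate 3, with the nearest at 9.27 and the highest at 9.88. Both arrays were among the 4 with a limma weight under 0.5 (0.251 and 0.394). In wt, replicate 5 was at 8.95 for Egr2 (nearest 10.18, highest 10.66) and at 8.80 for Npas4 (nearest 9.91, highest 10.56), and it was the lowest wt brain for 9 of the 10 members.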

How the results depend on the processing

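No member was called in any comparison under any of 35 or 36 other settings. The smallest adjusted p reached was 0.181, for Egr2 in aSYN/Hsp70 against aSYN without aSYN replicate 5. Unadjusted limma p-values of members fell under 0.05 in some of these settings. The smallest were 0.0126 in aSYN against wt, 0.0157 in aSYN/Hsp70 against aSYN, 0.022 in the interaction and 0.0481 in Hsp70 carriers against non-carriers. Of 855 refits of the 24 member differences given in full, 3 turned the direction and 0 were called. Fosb in Hsp70 against wt (-0.47) turned to 0.0257 without the 4 arrays of low weight and ran from -0.647 to 0.0352 with 1 array left out. Nr4a1 in Hsp70 carriers (0.21) turned to -0.0579 with array weights. The count of correlated pairs (37 of 45) ran from 36 to 43 with 1 array left out and was 36 to 43 under the other planned settings, which included rank correlation and a sex covariate. The r of Fosb and Dusp1 ran from -0.0373 to 0.351 with 1 array left out. The settings of Spry2, those within female or male arrays, and those without the 4 arrays and quantile normalisation together, were added after seeing the data. Equal replicate numbers did not pair brains across groups (r from -0.148 to 0.193 over 36 such pairs of brains, 3 of them above 0.1). With a replicate block, 0 members were called and 37 of 45 pairs passed.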

Other observations

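Of 15 clock genes, Per1 (median r with the 10 members 0.594) and Arntl (0.518) went with the members over the 24 brains, and Dbp (-0.542), Nr1d2 (-0.359) and Cry2 (-0.339) went against them. Of 16 glucocorticoid-responsive genes, the median r with the members ran from -0.159 (Sgk3) to 0.624 (Nfkbia), with a median of 0.111 over the list. Both lists were chosen with earlier results of these data known. In no comparison was a gene of either list called (0 of 15 and 0 of 16, limma), where at most 0.718% of all probe sets were. The most at an unadjusted p under 0.05 in any comparison were 7 of 15 clock genes (46.7%) in Hsp70 carriers against non-carriers, where 17.7% of all probe sets had one. For glucocorticoid-responsive genes the most were 4 of 16 (25%) in aSYN against wt, where 5.17% did. The smallest adjusted p-values were in aSYN/Hsp70 against aSYN, where Ciart differed by -0.89 (limma adjusted p = 0.089), Dbp by -0.82 (adjusted p = 0.0987) and Sgk1 by -0.66 (adjusted p = 0.098).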
